A study of Mus musculus with 4 samples.

Results

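The genes described here are named for proteins of the mitochondrial ribosome. They are the protein-coding genes of the mm10 mouse genome whose symbol starts with Mrpl (named for the large subunit) or Mrps (named for the small subunit). Of 21627 protein-coding genes on the autosomes and X, 78 met this rule, 49 Mrpl and 29 Mrps. The symbols are not exact, as given below for Mrps18a, Mrps30 and Mrps36, and ribosomal proteins with other symbols are left out. Single genes were chosen by symbol alone. The same rule lists their highest signal, summed signal and number of regions against genes of similar length, and the gene family was picked with such values known, so these are given as a description. The genes lay on 17 autosomes, with 11 on chromosome 11 and 8 on chromosome 17.

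The study asked which genomic regions are bound by Six3, a homeodomain protein needed for forebrain and eye formation. Primary neural stem cells from mice, with the genotype given as WT, had been made to overexpress Six3 and were moved from medium with EGF and FGF to neurobasal medium with B-27 for 3 h. Binding was profiled by CUT&RUN, in which an antibody tethers micrococcal nuclease to a protein on chromatin and the DNA it releases is sequenced. There were 3 libraries against the FLAG tag of Six3 and 1 control library with IgG (immunoglobulin), and the labels give the same cells, genotype, treatment and time for all 4. The sources used here do not give what drove the added Six3 or whether the FLAG libraries came from separate cultures.

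The mitochondrial ribosome translates the few messenger RNAs encoded by mitochondrial DNA, whose products are core subunits of the respiratory chain. All of its proteins are encoded in the nucleus, made in the cytosol and imported. Some have a counterpart in bacterial ribosomes, such as the stalk proteins that recruit translation factors, and others occur only in mitochondria. The genes are expressed in nearly all cell types, and their promoters are typically rich in CpG dinucleotides.

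The deposited table held 1578514 regions, each with a highest coverage signal and a signal summed over its bases, without values for individual libraries. The sources used here do not say which libraries it combines, so no value below has a replicate error or a depth, FLAG was not set against IgG, and no test over samples was possible. Highest signals came in whole steps, of 1.9 in 945651 regions (the 1.9-step set) and of 0.48 in 632860 (the 0.48-step set). The remaining 3 regions fitted both or neither step. Signals of the 2 sets need not share a scale and are given separately, except in medians and percentiles of the highest signal. Those take the higher value of either set, so a gene without a 1.9-step region enters with its 0.48-step height.

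Promoters come first, because there a region can be shown on the sequence itself. RefSeq (GRCm38.p6, which has the coordinates of mm10) listed a start site and promoter for 69 of the 78 genes, and where several starts were listed the outermost was used. Printed here are the 250 bases before the start of the 5 genes with the tallest 1.9-step regions among those covering at least 20 of those bases. Taller regions within 1 kb of a start but outside these bases, such as 11.4 at Mrps6 and 9.5 at Mrpl27, Mrps2, Mrps23 and Mrps30, are not shown. Capitals mark bases inside the region, and the strand is that of the gene.
Mrpl24 (chr3:87919294-87919543, + strand): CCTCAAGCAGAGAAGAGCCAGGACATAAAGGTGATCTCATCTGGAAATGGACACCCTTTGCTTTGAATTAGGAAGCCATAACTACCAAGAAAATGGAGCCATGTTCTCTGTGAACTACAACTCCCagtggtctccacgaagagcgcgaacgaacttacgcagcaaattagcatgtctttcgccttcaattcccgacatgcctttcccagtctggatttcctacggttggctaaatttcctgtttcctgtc
Mrpl12 (chr11:120484387-120484636, + strand): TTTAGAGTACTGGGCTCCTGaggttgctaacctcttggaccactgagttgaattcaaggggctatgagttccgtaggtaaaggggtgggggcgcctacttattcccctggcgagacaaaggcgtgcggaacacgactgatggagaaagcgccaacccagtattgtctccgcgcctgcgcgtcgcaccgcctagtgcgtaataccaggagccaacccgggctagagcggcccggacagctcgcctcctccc
Mrpl10 (chr11:97041332-97041581, + strand): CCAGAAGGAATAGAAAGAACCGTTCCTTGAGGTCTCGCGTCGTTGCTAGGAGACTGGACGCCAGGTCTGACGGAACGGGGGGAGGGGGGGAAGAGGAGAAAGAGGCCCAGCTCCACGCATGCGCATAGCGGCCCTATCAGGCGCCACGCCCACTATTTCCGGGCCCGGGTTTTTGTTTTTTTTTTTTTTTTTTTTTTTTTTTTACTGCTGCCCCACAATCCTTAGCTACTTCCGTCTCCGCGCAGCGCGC
Mrpl41 (chr2:24975099-24975348, - strand): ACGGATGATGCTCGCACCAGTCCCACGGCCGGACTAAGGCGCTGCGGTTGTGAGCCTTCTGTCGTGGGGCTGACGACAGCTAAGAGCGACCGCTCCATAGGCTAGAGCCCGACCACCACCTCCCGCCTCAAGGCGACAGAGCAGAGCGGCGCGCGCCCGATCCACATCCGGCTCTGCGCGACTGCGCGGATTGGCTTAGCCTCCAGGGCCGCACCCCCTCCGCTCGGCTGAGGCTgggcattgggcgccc
Mrpl28 (chr17:26123253-26123502, + strand): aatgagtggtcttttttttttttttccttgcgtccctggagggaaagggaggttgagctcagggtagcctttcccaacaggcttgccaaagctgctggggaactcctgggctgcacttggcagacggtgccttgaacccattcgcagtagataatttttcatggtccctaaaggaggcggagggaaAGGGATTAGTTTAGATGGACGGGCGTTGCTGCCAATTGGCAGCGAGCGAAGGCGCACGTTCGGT
The region at Mrpl24, a gene for a protein near the exit of the nascent chain, had a highest signal of 9.5. It ended before the listed start, so that 125 of the 250 bases lay inside it. This start, at 87919544, lies inside the gene as annotated (chr3:87918131-87923450), and so does the whole region. The regions at the other 4 genes had 7.6 each. The region at Mrpl10, a stalk protein, covered all 250 bases and ran across the start site, and that at Mrpl41, a protein found only in mitochondrial ribosomes, covered 235. At Mrpl12, the stalk protein that contacts translation factors, only 20 bases were covered, and at Mrpl28 the 64 bases next to the start site were.

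A 1.9-step region lay in the 300-base promoter (250 bases before to 50 after the start) of 33 of these 69 genes, or 47.8%, against 33.7% of 17273 genes with a listed start. For regions of 4 or more steps, a signal of 7.6 or more, the count was 7 of 69, against 9.60% of those genes. All 7 were Mrpl genes, namely the 5 printed above with Mrpl27 and Mrpl37, whose regions began within 50 bases after the start, and none of the 26 Mrps promoters had one. For the 0.48-step set the count was 9 of 69, against 12.3%. Over the 69 genes together, the share was thus above that of all genes for any 1.9-step region and close to it for 4 or more steps. The latter share was 16.3% of Mrpl and 0% of Mrps promoters.

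In base composition the promoters of the mitochondrial ribosomal protein genes stood close to all promoters in G and C but had more CpG. The share of G and C had a median of 58.3% (42.3% to 78%) against 56.3% over all 17273 promoters. The number of CpG dinucleotides had a median of 21 against 14, and 64 of 69 promoters, or 92.8%, had a CpG observed-to-expected ratio above 0.6, against 48.9%. Over all genes, the share with a 1.9-step region in the promoter was 27.3% in the fifth of genes with the lowest G and C, 37.7% in the next-to-highest and 31.8% in the highest. The part of base composition in the counts was not tested.

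Of 6 motifs searched as exact letters on both strands, those of ETS factors and YY1 were found in a larger share of these promoters than of all promoters. CCGGAAGT, bound by ETS factors, was in 11 of 69 promoters (15.9%) against 5.34% of all 17273. AAGATGGCG, bound by YY1, was in 8 (11.6%) against 1.92%, and the NRF1 motif was in 3 (4.35%) against 1.35%. The NRF1 count is only a few matches, and nothing is read from it. All 3 motifs contain a CpG, of which these promoters had more. What that contributes to the shares was not tested. TAAT, the core read by many homeodomains, was in 30 (43.5%) against 52.6%. TGATAC, a motif of Six3 and its relatives, was in 1 promoter, that of Mrps24, against 4.60% of all, and GGTATCA, another one, in none against 1.11%. With 69 promoters such shares amount to a few matches at most, and nothing is read from these 2 counts. Any GGTATCA also holds TGATAC on the other strand, and a match is only a match of letters. Of the 5 printed stretches, Mrpl24, Mrpl12 and Mrpl28 held TAAT, and Mrpl10 and Mrpl41 held none of the 6.

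**Figure D1:**
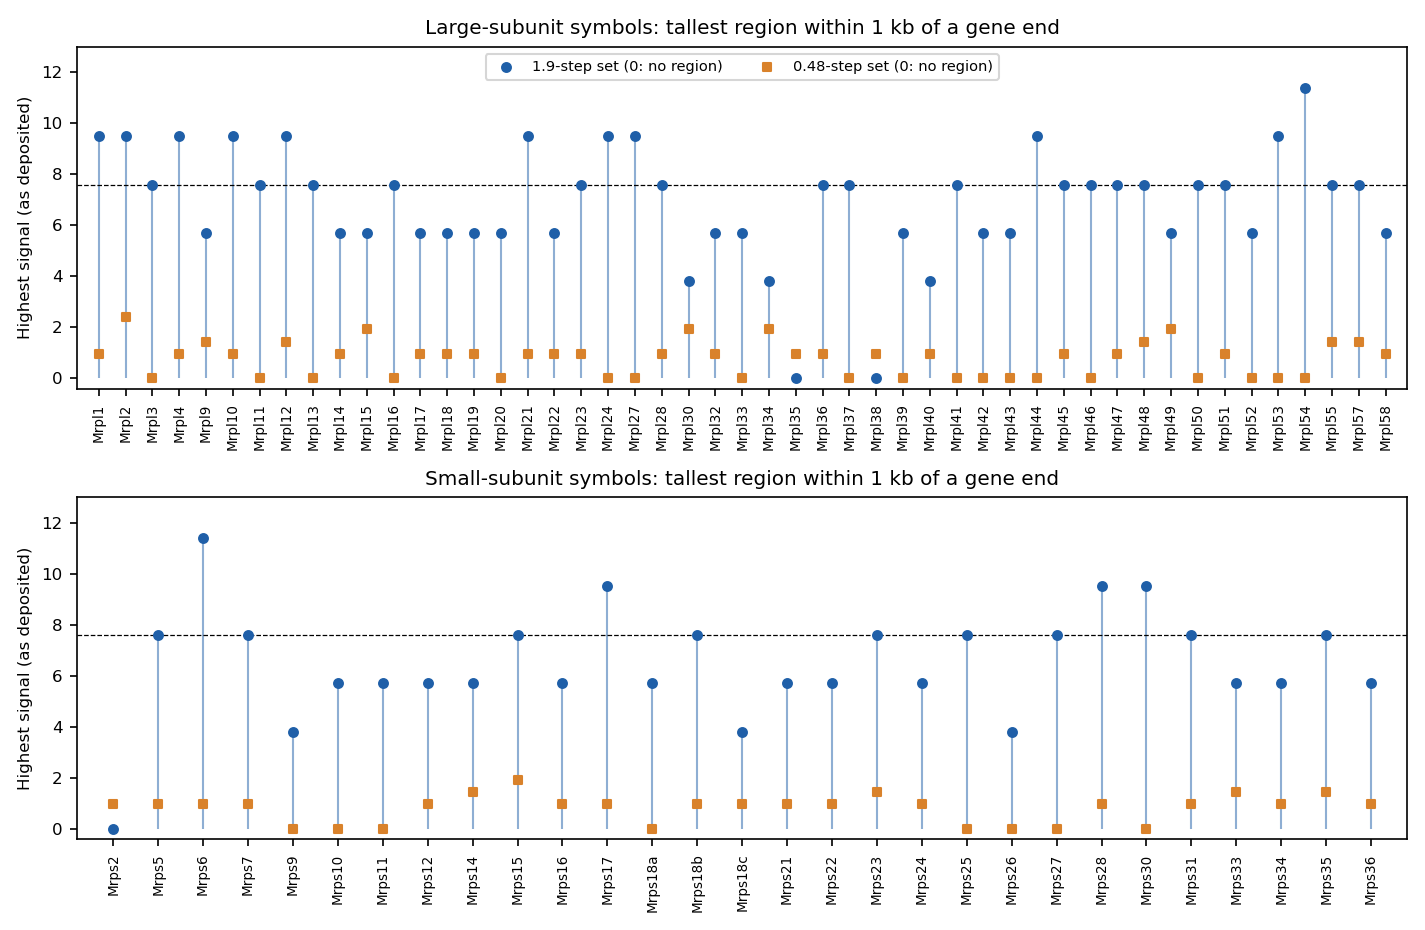
Highest signal, as deposited, of the tallest region within 1 kb of either end of each of the 78 genes, with Mrpl genes above and Mrps genes below. Circles are the 1.9-step set and squares the 0.48-step set, a value of 0 means no region, and the dashed line is at 7.6 (4 steps). Mrpl54 and Mrps6 reach 11.4, and Mrpl35, Mrpl38 and Mrps2 have only a 0.48-step region.

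At their ends, taken as 1 kb either side of each end, all 78 genes held a region, as did 94.2% of protein-coding genes. A 1.9-step region was there in 75, against 88.1%, and a 0.48-step region in 51 (65.4%), against 65.7%. Regions of 4 or more 1.9-steps were at the ends of 41 genes, or 52.6%, against 39.0% of all protein-coding genes and 39.8% of genes of similar length. For 5 or more steps the count was 15 (19.2%), against 13.3%, and for 6 or more it was 2 (2.56%), against 3.61%. Tall 0.48-step regions, of 3 or more steps, were at 15 genes (19.2%), against 23.7%. The tallest end region of each gene, from either set, had a median of 7.6 over the 78 genes. Over all protein-coding genes the median was 5.7, the neighbouring step. The windows follow the annotated ends, so start and stop sides are mixed, and they do not hold every listed start. The starts listed for Mrpl18, Mrpl22, Mrpl24, Mrpl36, Mrps2 and Mrps23 lie inside the gene, more than 1 kb from both ends. The tallest 1.9-step region within 1 kb of those starts was above that at an end in Mrpl22, Mrps2 and Mrps23. It was equal in Mrpl24 and lower in Mrpl18 and Mrpl36.

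The 2 genes at the top of the range had 6 steps. Mrpl54, a protein specific to mitochondrial ribosomes, held 3 regions of the 1.9-step set at its ends with highest signals of 7.6, 5.7 and 11.4, and no 0.48-step region. The tallest, at chr10:81266309-81267839, was 1531 bp wide and reached beyond the gene (chr10:81264722-81266926), and another gene, Apba3, lay within 1 kb of an end. The 500 kb bin around Mrpl54 had 2.17 times the 1.9-step signal of the median autosomal bin, the highest of the 78 genes. What the raised signal of the bin contributes was not tested. Mrps6, a small-subunit protein with a bacterial counterpart, had 11.4 at chr16:92057058-92057941, before its start, and 5.7 in each of 2 further 1.9-step regions at its ends. Here too another gene, Slc5a3, lay within 1 kb of an end, and the bin around Mrps6 was at 1.22 times the median.

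At 5 steps, a signal of 9.5, stood 13 genes. The Mrpl genes were Mrpl1 (a protein of the mobile stalk near the tRNA exit), Mrpl2, Mrpl4, Mrpl10, Mrpl12, Mrpl21, Mrpl24, Mrpl27, Mrpl44 and Mrpl53. The Mrps genes were Mrps17, Mrps28 and Mrps30, and the protein of Mrps30 sits in the large subunit despite its name. Mrpl12 had 4 regions of the 1.9-step set at its ends, with 7.6, 5.7, 9.5 and 7.6 from left to right along the chromosome. Mrpl10 had 5, with 7.6, 7.6, 9.5, 5.7 and 3.8. Mrpl12 and Mrpl10 thus carried several moderately tall regions rather than 1 that stood out. Mrpl4 had 5, with 9.5 (chr9:20999761-21000409), 5.7, 5.7, 7.6 and 5.7. Mrps17 also had 5, of which the tallest, 9.5, lay at chr5:129718065-129718812, across the end of the gene away from its start. The tallest end regions of Mrpl1 (chr5:96265201-96266508) and Mrpl44 (chr1:79781104-79781787) likewise lay at the end away from the start, and that of Mrps30 (chr13:118385712-118386435) lay inside the gene near its start.

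The bulk of the genes fell on the steps just at and just under 4. At 7.6 the share was 33.33%, against 25.68% of all protein-coding genes. At 5.7 it was 35.9%, close to the 34.97% of all protein-coding genes. At 7.6 stood 26 genes, 17 Mrpl (Mrpl3, Mrpl11, Mrpl13, Mrpl16, Mrpl23, Mrpl28, Mrpl36, Mrpl37, Mrpl41, Mrpl45, Mrpl46, Mrpl47, Mrpl48, Mrpl50, Mrpl51, Mrpl55 and Mrpl57) and 9 Mrps (Mrps5, Mrps7, Mrps15, Mrps18b, Mrps23, Mrps25, Mrps27, Mrps31 and Mrps35). At 5.7 stood 28 genes, 16 Mrpl (Mrpl9, Mrpl14, Mrpl15, Mrpl17, Mrpl18, Mrpl19, Mrpl20, Mrpl22, Mrpl32, Mrpl33, Mrpl39, Mrpl42, Mrpl43, Mrpl49, Mrpl52 and Mrpl58) and 12 Mrps (Mrps10, Mrps11, Mrps12, Mrps14, Mrps16, Mrps18a, Mrps21, Mrps22, Mrps24, Mrps33, Mrps34 and Mrps36). The former include Mrpl45, which anchors the ribosome to the inner membrane, and the latter Mrps12, a protein of the decoding site, and Mrpl58, a peptidyl-tRNA hydrolase built into the large subunit. The tallest region at an end had 3.8 in Mrpl30, Mrpl34, Mrpl40, Mrps9, Mrps18c and Mrps26, or 7.692%, against 14.13% of all protein-coding genes. No protein-coding gene with a 1.9-step region at an end had a tallest one lower than 3.8.

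No 1.9-step region lay at the ends of Mrpl35, Mrpl38 and Mrps2, each of which had a single 0.48-step region of 0.96 there. Further in, Mrpl35 had 6 regions of the 1.9-step set, the tallest with 9.5 at chr6:71820638-71821002. Mrps2 had 1, also with 9.5, at chr2:28467251-28467567, within 1 kb of its listed start site at 28468066, which lies inside the gene as annotated. Mrpl38 had 2, with 5.7 and 3.8. The tallest 1.9-step region of the gene and its flanks touched an end in 54 of the 78 genes (69.2%) and lay only further inside in 24. Of genes with a 1.9-step region, the tallest touched an end in 45.3% of all and in 65% of those of similar length. Among the 24 were Mrps9, with 3 regions of 11.4, and Mrpl42, Mrps5, Mrps27, Mrps28 and Mrps36 with 1 each. Mrps36 has since been assigned to the oxoglutarate dehydrogenase complex rather than to the ribosome.

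**Figure D2:**
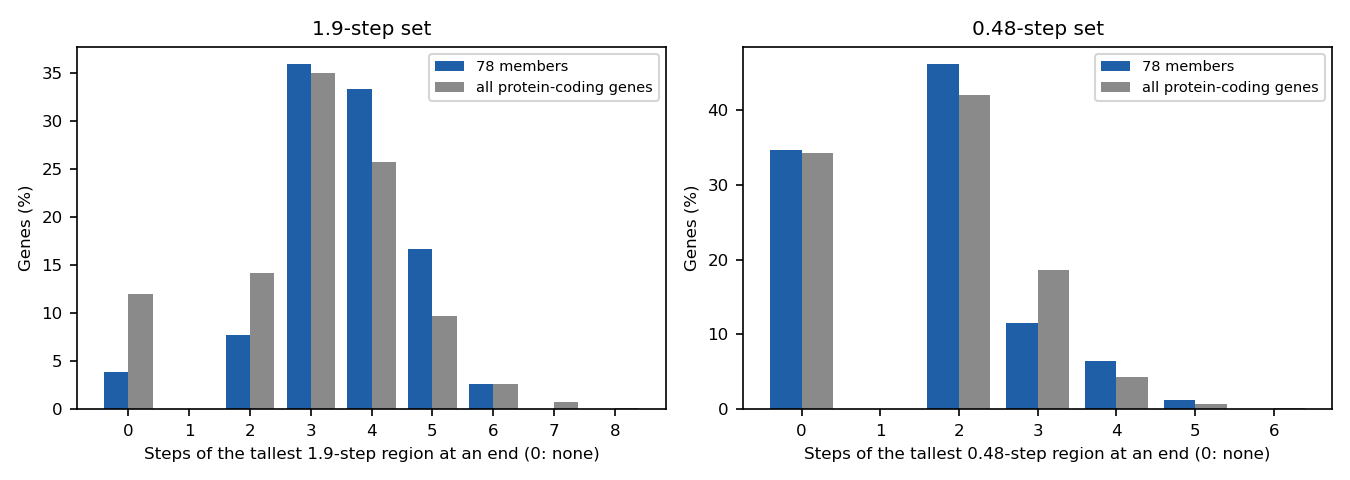
Share of genes (percent) by the number of steps of the tallest region within 1 kb of an end, for the 1.9-step set (left) and the 0.48-step set (right). Blue bars are the 78 mitochondrial ribosomal protein genes, grey bars all 21627 protein-coding genes, and 0 means no region. In the 1.9-step set the blue bars are lower at 0 and 2 steps and higher at 4 and 5, and at 6 the blue bar is at 2.56%.

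In the 0.48-step set most of the genes had no end region or 0.96, the lowest height at any gene end, as did most protein-coding genes. The tallest region at an end had 2 steps (0.96) in 36 genes (46.15%), against 41.99% of all protein-coding genes. It had 3 steps (1.44) in 9 (11.54%), against 18.65%, and 4 steps (1.92) in 5 (6.41%), against 4.23%. It had 5 steps (2.4) in 1 (1.28%), against 0.657%, and 27 genes (34.6%) had none, against 34.3%. The highest was at Mrpl2, a protein close to the catalytic centre of the large subunit, with 2.4 at chr17:46650089-46650452. It overlapped a 1.9-step region of 5.7 by 152 bp. Mrpl30, Mrpl15, Mrpl49, Mrps15 and Mrpl34 followed with 1.92 each. At Mrpl30 that region (chr1:37890390-37890814) covered the start site, and no 1.9-step region lay within 1 kb of this start. At Mrpl49 a region of 1.92 at chr19:6057118-6057712 overlapped 2 regions of the 1.9-step set, each of 5.7. Over the 78 genes with 1 kb on each side, 106 of 307 regions of the 0.48-step set, or 34.5%, overlapped a 1.9-step region, against 27.7% of all 0.48-step regions on the autosomes and X. At gene ends such overlaps occurred in 23 genes (29.5%), against 26.7% of all protein-coding genes and 27.0% at similar length, among them Mrpl12 with 2 and Mrpl49 with 3.

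Large-subunit and small-subunit symbols were also counted apart. Regions of 4 or more 1.9-steps were at an end of 28 of 49 Mrpl genes (57.1%) and 13 of 29 Mrps genes (44.8%), with medians of the highest signal at an end of 7.6 and 5.7. In the promoter, as given above, regions of 4 or more 1.9-steps were found at 7 of 43 Mrpl and 0 of 26 Mrps genes. A 0.48-step region was at an end of 30 Mrpl genes (61.2%) and 21 Mrps genes (72.4%). Of the 46 genes whose protein has a bacterial counterpart, 23 (50%) had 4 or more 1.9-steps and 35 (76.1%) a 0.48-step region. Of the 29 without a listed counterpart these were 17 (58.6%) and 15 (51.7%). The remaining 3 are Mrps18a and Mrps30, counted apart because their proteins sit in the large subunit, and Mrps36, so the 29 Mrps symbols are not all small-subunit proteins. The classes share a single table and neighbouring steps, and no test of these differences was made.

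Over the whole gene with 1 kb on each side, the mitochondrial ribosomal protein genes carried more 1.9-step regions than genes of similar length, and about as many 0.48-step regions. Their lengths ran from 825 bp at Mrpl53 to 121712 bp at Mrps28, with a median of 7690.5 bp against 17330 bp over all protein-coding genes, so each gene was set against the 1000 other genes nearest in length. The 78 genes held 573 regions of the 1.9-step set, where the means of the genes of similar length add up to 486.9, a ratio of 1.18. At the ends alone the total was 194 against 156.0, a ratio of 1.24. For the 0.48-step set the totals were 307 against 298.0 over the gene, a ratio of 1.03, and 86 against 82.96 at the ends, a ratio of 1.04. Widths were ordinary, with a median of 452.5 bp for their 1.9-step regions against 455 bp for all such regions. Regions of 4 or more steps made up 27.4% of their 1.9-step regions, against 22.7% of all.

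**Figure D3:**
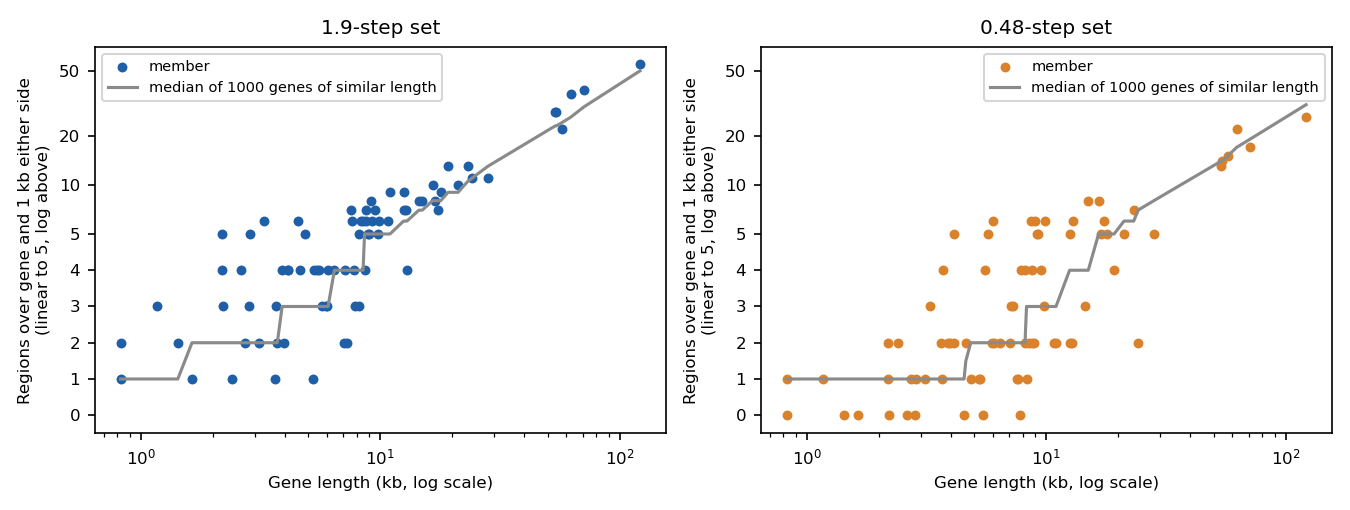
Number of regions over each gene and 1 kb either side (vertical axis, linear to 5 and logarithmic above) against gene length in kb (logarithmic), for the 1.9-step set (left) and the 0.48-step set (right). Points are the 78 genes, and the grey line is the median of the 1000 genes nearest in length. The points follow the line over the whole range of length, with more of them above it in the left panel.

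The percentile of each gene among those of similar length spread over nearly the whole scale. By number of 1.9-step regions the median percentile was 66.1 (10.7 to 98.8), with 55 genes above 50 and 23 below. By summed 1.9-step signal it was 66.8 (11.2 to 98.6), with 57 above and 21 below. The highest signal over gene and flanks stood at a median percentile of 58.0, with 49 above and 29 below. By number of 0.48-step regions it was 50.4 (4.90 to 99.0), with 39 above and 39 below. A percentile of 50 is what a gene typical of its length would have. In that set the median was 47.8 for Mrpl and 63.5 for Mrps genes.

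**Figure D4:**
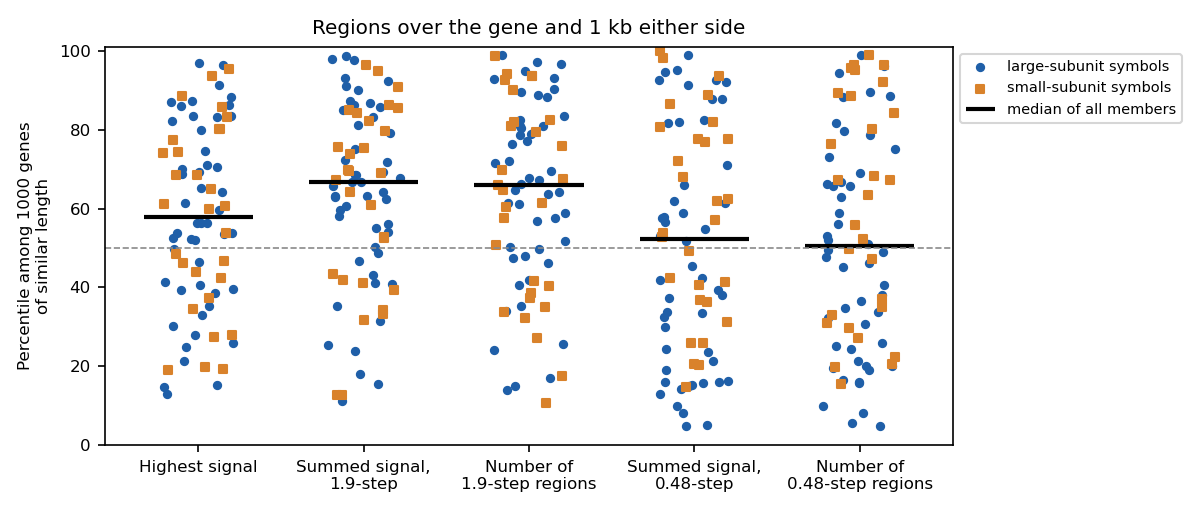
Percentile of each of the 78 genes among the 1000 protein-coding genes nearest in length, for 5 measures over the gene and 1 kb either side. Circles are Mrpl genes, squares Mrps genes, bars the median of all 78 and the dashed line 50, and points are spread sideways for legibility. The median bars of the 1.9-step measures lie at 66.8 and 66.1 and those of the 0.48-step measures at 52.3 and 50.4.

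The 5 genes highest by summed 1.9-step signal for their length were Mrpl41, Mrpl12, Mrpl54, Mrps17 and Mrps27. Mrpl41 had a summed signal of 11061.8 (signal times bp) in 4 regions, against a median of 3267.05 for its length. Mrpl12 had 12099.2 against 4286.4, and Mrpl54 had 9731.8 against 2794.9. All 3 are short genes with another gene within 1 kb of an end, Dph7 and Pnpla7 at Mrpl41, Hgs at Mrpl12 and Apba3 at Mrpl54. Mrps17, without such a neighbour, had 9264.4 against 3691.7. Mrps27, a protein with pentatricopeptide repeats that bind RNA, was a long gene with 38 regions, a neighbour in Ptcd2, and 77508.6 against 49067.5.

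At the other end stood Mrpl38, Mrps22, Mrps2, Mrpl17 and Mrpl55. Mrpl38 had a summed 1.9-step signal of 2456.7 against a median of 6333.65 for its length, and Mrps2 had 1881.0 against 5108.15. Mrps22 had 4 regions of the 1.9-step set against a median of 6, but 6 of the 0.48-step set against 4 (percentile 84.3). The 2 sets thus went apart at this gene. Mrpl17 lay in the bin with the lowest 1.9-step signal of the 78 genes, 0.632 times the median bin, and Mrpl55 had a single 1.9-step region, of 7.6.

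The share of these genes that lie close to another gene was high, and tall regions were more frequent at the genes with such a neighbour. In 47 of the 78 (60.3%) an end had another protein-coding gene within 1 kb, against 30.9% of all protein-coding genes. Of these 47, 29 (61.7%) had a region of 4 or more 1.9-steps at an end, and of the 31 without such a neighbour 12 (38.7%) had one. Over all protein-coding genes the corresponding shares were 44.1% and 36.6%. The 31 genes without a close neighbour were thus near the 36.6% of all such genes, and the 47 with one were above the 44.1%. Set against only those genes of similar length that also had a neighbour, an alternative chosen after seeing the data, the median percentile was 57.9 by number of 1.9-step regions, 59.0 by summed 1.9-step signal, 52.3 by highest signal and 48.95 by number of 0.48-step regions. What the neighbours contribute was not tested.

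A pair of the genes stood head to head. The starts of Mrpl46 (chr7:78775341-78783089, - strand) and Mrps11 (chr7:78783131-78792988, + strand) were 42 bp apart. No region of either set lay in the promoter of either gene. The nearest shared region, at chr7:78781927-78782526 inside Mrpl46, had a highest signal of 5.7 and was the only region counted at the ends of 2 of the 78 genes. Mrpl46 had 4 regions of the 1.9-step set and none of the 0.48-step set, and Mrps11 had 6 of each.

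Of the 78 genes only Mrpl13, on chromosome 15, lay in one of the raised segments. These are 3 or more adjoining 500 kb bins, each with more than 1.6 times the 1.9-step signal of the median autosomal bin. The bin of Mrpl13 stood at 1.85 times the median. This gene had 7.6 and 5.7 at its ends and stood at percentile 71.8 by summed 1.9-step signal for its length. Over the 78 genes the bins had a median of 1.14 times, against 1.09 over all autosomal genes.

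Around listed start sites the 1.9-step coverage had no sharp peak. Within 1 kb of the start, 25.1% of bases of 69 genes lay inside a 1.9-step region, against 19% at 3 to 5 kb. The latter joins 15.1% on the side before the start with 22.8% on the side after it, so the coverage was low mainly before the start. Over all 17273 genes the values were 21.2% near the start and 20.1% on each side. For regions of 4 or more steps these 69 genes had 6.06% within 1 kb and 6.30% at 3 to 5 kb, against 5.92% and 5.52% over all genes. The highest 200 bp bin of the 69 genes, 30.8%, was centred 1.7 kb before the start. For 0.48-step regions the shares were 4.86% near the start and 6.67% farther out, against 5.72% and 5.73% over all genes. A 1.9-step region lay within 1 kb of the start in 57 of 69 genes (82.6%) and of the far end in 56 (81.2%), against 70.8% and 69.8% of all genes with a listed start. For the 0.48-step set these were 26 (37.7%) and 33 (47.8%), against 42.2% and 43.2%.

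**Figure D5:**
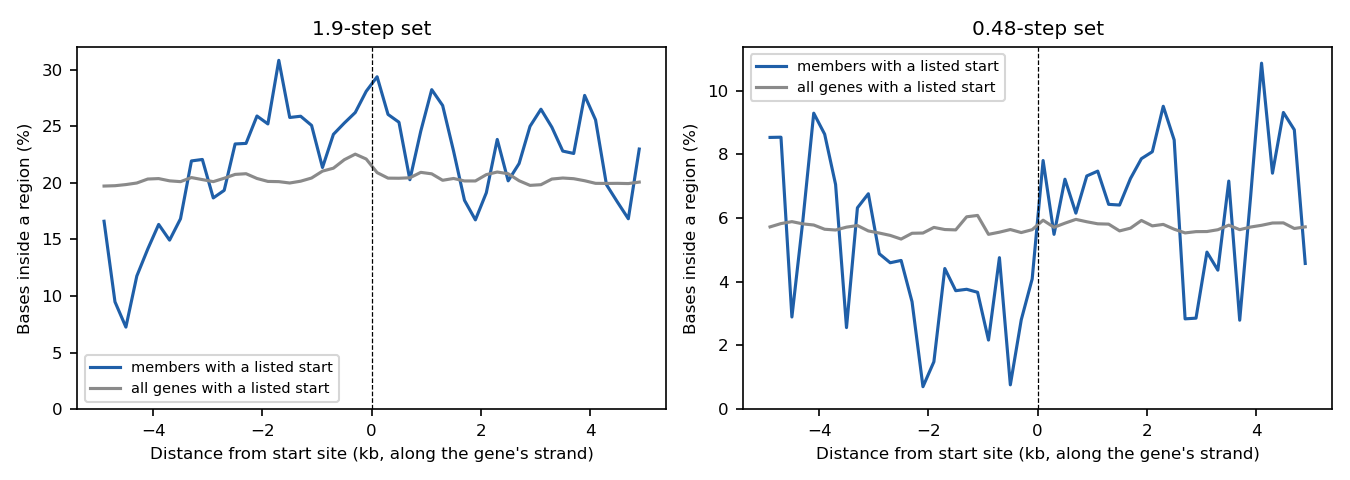
Share of bases (percent) inside a 1.9-step region (left) or a 0.48-step region (right), in 200 bp bins from 5 kb before to 5 kb after the listed start, along the strand of the gene. Blue is the mean of 69 mitochondrial ribosomal protein genes and grey that of 17273 genes. The blue line varies widely from bin to bin with only 69 genes, and on the left it runs from 21.4% to 30.8% in the 2.5 kb before the start, where the grey line runs from 20% to 22.5%.

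Other genes of mitochondrial gene expression were taken from 5 lists. Of 70 symbols 69 matched, 68 of them distinct genes, and 32 (47.1%) had a region of 4 or more 1.9-steps at an end, against 39.0% of all protein-coding genes, while 52 (76.5%) had a 0.48-step region, against 65.7%. Mitochondrial ribosomal proteins with other symbols had 3 of 5, led by Dap3, a GTP-binding small-subunit protein, with 11.4, and Ptcd3 with 9.5. Among factors of ribosome assembly and rRNA modification there were 11 of 19, with 9.5 at Eral1 and at Fastkd2, and Mtg2 had no region at its ends. Mitochondrial aminoacyl-tRNA synthetases had 9 of 17, with 7.6 at Cars2, Iars2 and Fars2. Genes of mitochondrial transcription and RNA processing had 7 of 16, led by Tfam, which packages mitochondrial DNA, and Mtpap, a poly(A) polymerase, with 9.5 each, and Pnpt1 had no region. The translation factors had 2 of 11, Mtif3 and Mtrf1l, each with 7.6, and Mtif3 lay in a raised segment of chromosome 5. Cytosolic ribosomal protein genes had 39 of 76 (51.3%) with 4 or more 1.9-steps and 54 (71.1%) with a 0.48-step region, shares near those of the mitochondrial ribosomal protein genes. Nothing was tested between these lists.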

How the data were processed

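Regions were taken from a single table that the authors deposited, in the layout of SEACR, with a highest and a summed signal (coverage) per region. The submitters' processing notes list mm10 with SEACR, Bowtie2 and deepTools. The name given to the deposited regions holds the words spikein and bedops, and how either was applied is not stated there. The sources used here give no versions or thresholds and do not say which libraries were combined. Depth is unknown. Both signals are the authors' own and are used only within this table. Heights within 0.001 of a whole multiple of 1.9 or 0.48 defined the step sets. A region counted at a gene end when it overlapped the window of 1 kb either side of that end by 1 bp or more. Genes, start sites and promoters came from RefSeq tables of GRCm38.p6.

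Members and lists were chosen with earlier results of these data known. Named were the 10 members with the tallest region at an end, any with none (there were none), the 5 tallest in the 0.48-step set, the 5 highest and 5 lowest by summed 1.9-step signal for their length, those in raised segments and those sharing a region. Other members named were chosen after their values were seen. FLAG was not tested against IgG, as no column holds a library. The counting was tested on simulated data. Windows, overlap rule, length matching and comparison genes were varied. Python 3.11.15, numpy 2.4.6 and pandas 2.3.3 were used.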

Additional observations from a re-analysis of the deposited data

How the results depend on the processing

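Of 47 alternative values of 8 results, 37 stayed within 1.5 times the count or within the 95% order-statistic interval of the median over genes. This tally does not measure stability. The interval treats genes as if they were replicates, and a median highest signal at an end of 5.7 instead of 7.6 counted as staying. Counts over the 31 genes without a close neighbour were set against counts over all 78, so their smaller number alone could move them. The number of genes with 4 or more 1.9-steps at an end, 41 of 78, was 27 with windows of 0.5 kb (27.0% of all genes), 71 with 5 kb (79.2%), 15 with 5 or more steps, and 12 of the 31 genes without a close neighbour. With 5 kb windows the share was therefore 91.0% against 79.2%, and with 0.5 kb 34.6% against 27.0%. Genes with a 0.48-step region, 51, were 77 with 5 kb windows (96.5% of all genes), 15 with 3 or more steps, and 20 of the 31. All 31 had some region at an end. Against comparison genes with a close neighbour, the median percentile was 59.0 by summed 1.9-step signal and 57.9 by number of 1.9-step regions. It stayed between 63.7 and 67.2 in the other alternatives for these measures, and between 48.8 and 54.1 for the number of 0.48-step regions. The median highest signal at an end was 5.7, as over all genes, with windows of 0.5 kb, by region midpoint, and without close neighbours. No paired analysis was possible because no value in the table belongs to a library. Depth per library is unknown, so a missing region does not show that signal is absent.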
